A study of Mus musculus with 23 samples.

Results

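The open chromatin described here lies next to 10 genes of transforming growth factor beta (TGF-beta) signalling: the ligands Tgfb1, Tgfb2 and Tgfb3, the receptors Tgfbr1, Tgfbr2, Tgfbr3 and Acvr1, and the SMAD proteins Smad3, Smad6 and Smad7. The genes were chosen by name. The peaks of 9 deposited lists were merged into 118102 regions wherever they overlapped by 1 bp or more. A region was counted to one of the genes when that gene was the nearest protein-coding gene in the mm10 RefSeq annotation, with distance 0 inside the gene body and at most 100 kb outside it. In this way 156 regions were found, of 107078 regions with any protein-coding gene within 100 kb. Of the 156 regions, 85 lay inside a gene body and 71 outside.

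The lists come from ATAC-seq, which marks open chromatin by the sites where the Tn5 transposase can insert sequencing adapters. The tissue was the mesenchyme of the maxillary prominence, which forms the upper jaw and most of the palate. All embryos were wild-type C57BL/6 mice, and the stages were E10.5, E11.5 and E12.5 (days of embryonic development), with 3 biological samples per stage and 1 peak list per sample, and in every group the ectoderm had been removed after Dispase digestion. The sources used here do not give how many embryos made up a sample or whether samples came from separate litters. A p-value therefore sets a difference between stages only against the spread of these samples. Most of the weight in that spread comes from pooling over all tested genes.

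In this pathway a TGF-beta dimer, made as a latent complex and released in the matrix, binds the kinase Tgfbr2, which then activates the kinase Tgfbr1. Tgfbr1 phosphorylates Smad2 and Smad3, which enter the nucleus with Smad4 and act on target genes, while Smad6 and Smad7 are inhibitory SMADs that are often induced by the same signals. In mice, loss of Tgfb3 or loss of Tgfbr2 in cranial neural crest gives cleft palate.

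The lists held 14886 to 19095 peaks in E10.5 lists, 5682 to 41457 in E11.5 lists and 19139 to 50361 in E12.5 lists. They hold no read counts, so depth is unknown and a region without a call is not shown to be closed. Sample 1 of E11.5 stood apart, with 5682 peaks and calls in 3 of the 156 regions. The peak names carry a number of 489 to 596 in E10.5 lists, 227 to 312 in E11.5 lists and 319 to 600 in E12.5 lists, and the names of E11.5 samples 1 and 2 lack a letter that the other 7 carry. The sources used here do not say what these marks mean, and whatever sets the E11.5 numbers apart cannot be told apart from that stage. All 12 facial mesenchyme marker genes had regions, 152 in all. Having a region is common, since 17609 of all 21631 protein-coding genes had one. Epithelial marker genes had 60 regions next to all 10 genes, of which 3 to 6 were called per E10.5 list, 2 to 17 per E11.5 list and 7 to 31 per E12.5 list. The numbers expected, as defined below, were 4.67 to 6.94, 1.29 to 17.07 and 6.77 to 22.75, so they also rise with the lists. The difference from these was not tested. The lists of markers of other cell types were also called in part (endothelium 99 regions, muscle 42, glia and neurons 20, pericytes 20, blood 14). In such bulk samples, fewer cells of a type and less open chromatin per cell cannot be told apart.

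Promoter sequences from RefSeq (GRCm38.p6, the mm10 build) were matched for 7 of the 10 genes, in 8 windows that run from 250 bases before a start site to 50 after it. Those not matched were Tgfb3, Tgfbr3 and Smad7. The 250 bases before the start site are printed for 4 genes, 5′ to 3′ on the strand of the gene, to show the range of calling at the receptors, a ligand and the signal carrier of the pathway. Capitals mark matches on either strand to motifs searched because of their known roles: CAGACA and GGCGCC, which SMAD proteins can bind, TGANTCA of AP-1, and the E-box CAGCTG. A match is a description of the letters and not a binding site. The Tgfbr1 window was called in all 9 lists, at chr4:47352972-47353221 on the + strand:
Tgfbr1: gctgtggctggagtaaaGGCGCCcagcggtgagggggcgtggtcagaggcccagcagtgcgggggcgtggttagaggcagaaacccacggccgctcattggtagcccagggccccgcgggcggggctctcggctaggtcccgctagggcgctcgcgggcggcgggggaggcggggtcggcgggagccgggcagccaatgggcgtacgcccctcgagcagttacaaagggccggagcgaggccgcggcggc
The Smad3 window was called in 6 lists, at chr9:63757995-63758244 on the - strand:
Smad3: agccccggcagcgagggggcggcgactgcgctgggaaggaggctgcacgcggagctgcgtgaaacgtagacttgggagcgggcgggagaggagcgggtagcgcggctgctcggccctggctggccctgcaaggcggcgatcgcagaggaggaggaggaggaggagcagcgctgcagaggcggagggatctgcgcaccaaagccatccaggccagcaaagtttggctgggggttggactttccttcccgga
The Tgfb2 window was called in 1 list, at chr1:186705990-186706239 on the - strand:
Tgfb2: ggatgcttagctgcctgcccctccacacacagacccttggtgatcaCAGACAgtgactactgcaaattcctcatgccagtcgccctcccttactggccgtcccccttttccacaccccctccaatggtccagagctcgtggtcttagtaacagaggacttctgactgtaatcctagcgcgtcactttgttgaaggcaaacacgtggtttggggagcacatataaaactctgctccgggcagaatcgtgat
The Tgfbr2 window was called in no list, at chr9:116175364-116175613 on the - strand:
Tgfbr2: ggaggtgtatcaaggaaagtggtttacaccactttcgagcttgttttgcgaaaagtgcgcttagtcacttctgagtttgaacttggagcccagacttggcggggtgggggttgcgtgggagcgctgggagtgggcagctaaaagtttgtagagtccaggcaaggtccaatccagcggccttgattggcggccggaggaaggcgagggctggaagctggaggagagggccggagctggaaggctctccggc

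The GGCGCC of Tgfbr1 was the only match to that motif in the 8 windows, and this motif stood in 15.5% of all 21045 RefSeq promoter windows of 300 bases. CAGACA stood in the printed Tgfb2 sequence and in a window at another Tgfbr1 start site, which no list called, and in 18.5% of all windows. TGANTCA stood in none of the 8 windows, against 7.04% of all. CAGCTG stood once, in the 50 bases after the Tgfbr2 start site, and in 15.7% of all windows. In base composition the called Tgfbr1 window had 74.7% G or C and 34 CpG dinucleotides, and the Smad3 window 67.7% and 25. The Tgfb2 window had 54.3% and 10, and the Tgfbr2 window 59.0% and 15. The median over all windows was 56.7% G or C, and 65.0% over those called by all 9 lists. G and C content did not order the windows of these genes by calling: the Tgfb1 window had 77.0% and was called by no list, and the Acvr1 window had 83.7% and was called by 2. Of all windows 3.75% were called by all 9 lists and 46.0% by none.

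Most of the 156 regions were called by a single list. This held for 116 regions or 74.4%, against 67.8% of all regions near a gene. Of the 116, 42 were called by E12.5 sample 2 alone, which has the longest list. These made up 26.9% of the 156 regions, against 21.8% of all regions. Only 19 regions or 12.2% were called by 3 or more lists, against 16.8% of all regions. All 9 lists called 2 regions or 1.28%, near the 1.12% of all regions. Within 1 kb of either end of a gene lay 11.5% of the 156 regions and 17.3% of all regions.

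**Figure D1:**
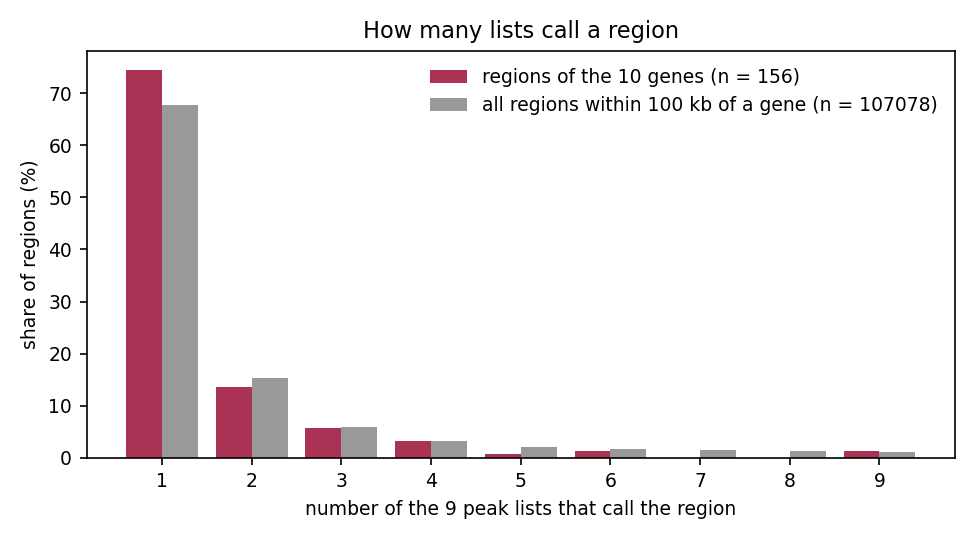
Share of regions (%) by the number of the 9 peak lists that call them, for the 156 regions of the 10 genes and for all 107078 regions with a gene within 100 kb. Bars for a single list reach 74.4% and 67.8%, and no region of the 10 genes was called by 7 or 8 lists.

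The number of regions called per list followed the length of the lists. The 156 regions had 16, 22 and 17 calls in E10.5 lists, 3, 28 and 40 in E11.5 lists, and 32, 62 and 20 in E12.5 lists. The numbers expected, from how many regions each list calls and how many of the 9 lists called each region, were 16.22, 20.47 and 14.64 in E10.5 lists, 5.62, 27.96 and 45.87 in E11.5 lists, and 28.99, 60.18 and 20.05 in E12.5 lists. The widest gaps were in E11.5 sample 3, with 40 calls where 45.87 were expected, and in E12.5 sample 1, with 32 where 28.99 were expected. At least 1 list called 45 of the regions at E10.5 (28.8%, against 29.2% of all regions), 54 at E11.5 (34.6%, against 41.3%) and 96 at E12.5 (61.5%, against 62.3%).

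The fold enrichment that the authors' peak caller gave for each peak was used only as a rank inside its own list, since folds of different lists are not comparable. The highest rank that a region reached in any list had a median at percentile 33.4 for regions called once, 60.4 for regions called by 2 lists and 74.3 for those called by 3 or more. The corresponding medians over all regions near a gene were 33.9, 60.7 and 86.2. Regions called by 3 or more lists were also wider, with a median of 503 bp, against 160 bp for regions called once. Both measures grow with the number of lists, and of the 19 regions of these genes called by 3 or more lists, 14 had only 3 or 4 calls, against 9780 of 18018 such regions over all genes. Among regions with exactly 3 calls the median highest rank was percentile 60.4 for the 9 next to these genes and 74.4 over all genes, and among those with exactly 4 calls it was 72.7 for the 5 next to these genes and 82.1 over all genes. These differences were not tested.

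**Figure D2:**
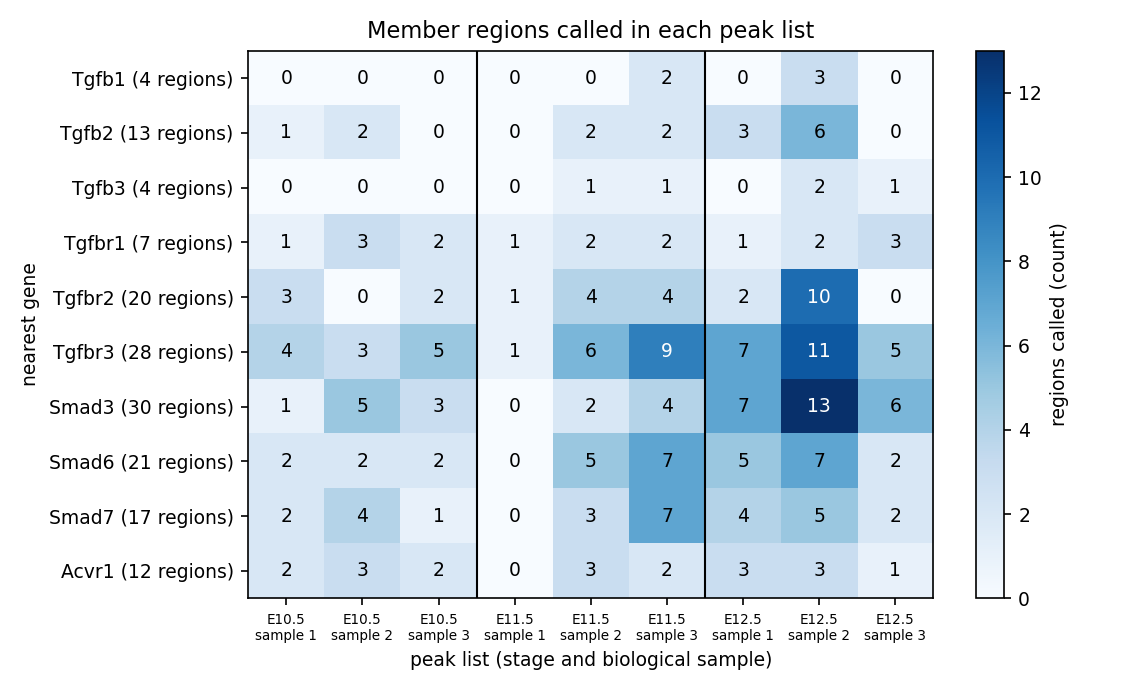
Number of regions next to each of the 10 genes (rows) that each of the 9 peak lists (columns, by stage) called, with the count printed in each cell. E11.5 sample 1 has at most 1 call per gene, and E12.5 sample 2 has the highest count, 13, next to Smad3.

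Among the ligands, Tgfb1 and Tgfb3 were called at E11.5 and E12.5 and in no E10.5 list, and Tgfb2 was called at all stages. Tgfb1, the ligand best known from blood vessels and immune cells, had 4 regions, all inside its body at chr7:25687002-25705077. E11.5 sample 3 called 2 of them, E12.5 sample 2 called 3, and the other 7 lists called none. These 2 lists are the longest of their stages, and the expected calls were 1.034 and 1.417 in them and at most 0.596 in any other list. The region called by both, chr7:25687229-25687431, starts 227 bp downstream of the start site and reached percentile 11.8 in E11.5 sample 3 and 6.7 in E12.5 sample 2. Joined with regions less than 1 kb away, it made up chr7:25686216-25687766, which begins ahead of the body. The same 2 lists called this stretch, and the nearest-gene rule counted the part ahead of the body to another gene.

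Tgfb3, the ligand needed for palate fusion in mice, had 4 regions, all at or within 3059 bp of one end of its body at chr12:86056743-86079041. E11.5 samples 2 and 3 called 1 region each, E12.5 sample 2 called 2 and sample 3 called 1. Both E11.5 lists called the same region, chr12:86078916-86079687, which spans that end of the body and reached percentiles 45.8 and 60.5. No start site was matched for Tgfb3, so this end may be its start. The E12.5 lists called 3 other regions that lie 1110 to 3059 bp inside the body, each in a single list. Joined where they lie under 1 kb apart, the 4 regions made up 1 stretch, chr12:86075797-86079687, with calls from 2 E11.5 and 2 E12.5 lists and none at E10.5. The expected number of calls at E10.5 was 0.256 to 0.389 per list for Tgfb1 and for Tgfb3, so 0 calls there is close to what the length of those lists gives.

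Tgfb2, a ligand whose loss in mice affects the heart, the inner ear and the face, had 13 regions. Its calls were 1, 2 and 0 in E10.5 lists, 0, 2 and 2 in E11.5 lists, and 3, 6 and 0 in E12.5 lists, so the stages overlap and E12.5 sample 3 called nothing. Only 1 region had 3 calls: chr1:186705221-186705768, 221 bp downstream of the start site printed above, was called by E11.5 samples 2 and 3 and E12.5 sample 2. The window printed above was overlapped by the neighbouring region chr1:186706084-186706393, called by E12.5 sample 2 alone at percentile 36.0. A region 12585 bp outside the body, chr1:186609993-186610202, was called by E11.5 samples 2 and 3 and by no other list. The 3 E10.5 regions, 22780 to 28953 bp downstream of the start site, were called by 1 E10.5 list each and by no list of a later stage.

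The receptors held both regions that all 9 lists called. The kinase Tgfbr1 had 7 regions, with 1, 3 and 2 calls in E10.5 lists, 1, 2 and 2 in E11.5 lists, and 1, 2 and 3 in E12.5 lists. Its region at the start site, chr4:47352020-47353478, covered the printed promoter and was called in all 9 lists. It ranked at percentiles 89.3, 98.2 and 94.2 in E10.5 lists, 61.1, 85.0 and 93.1 in E11.5 lists, and 81.4, 98.4 and 94.7 in E12.5 lists. It was thus among the higher peaks of every list but E11.5 sample 1, which alone placed it below percentile 81.4.

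No region lay inside the Tgfbr1 body apart from this one. The other 6 regions lay outside it, and 3 of them formed a cluster from chr4:47437152 to chr4:47438279, 22226 to 22778 bp past the far end of the gene. Inside this cluster E10.5 samples 2 and 3 called chr4:47437427-47437632, E11.5 samples 2 and 3 called chr4:47437704-47438279, and E12.5 sample 2 called chr4:47437152-47437280. The 3 stages thus called adjacent pieces of 1 stretch of DNA that do not overlap each other, and 5 of 9 lists called the joined stretch.

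Tgfbr2, the kinase that binds the ligand first, had 20 regions but none called by more than 3 lists. Its calls were 3, 0 and 2 in E10.5 lists, 1, 4 and 4 in E11.5 lists, and 2, 10 and 0 in E12.5 lists, and 16 regions were called once. The printed promoter was called by no list. Next to it, chr9:116174809-116175311, which ends 52 bp downstream of the start site, was called by E10.5 sample 1 and E11.5 samples 1 and 2 and by no E12.5 list, at percentiles 41.3, 32.7 and 56.0. Deep inside the gene, chr9:116124700-116124987 was called by E10.5 sample 3 and E12.5 samples 1 and 2 and by no E11.5 list, and reached percentile 85.0.

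Tgfbr3 is betaglycan, a receptor without kinase activity that presents ligand, above all TGF-beta 2, to Tgfbr2. It had 28 regions, with 4, 3 and 5 calls in E10.5 lists, 1, 6 and 9 in E11.5 lists, and 7, 11 and 5 in E12.5 lists. Of the 28 regions, 5 carried 3 or more calls, where 16.8% of all regions near a gene did. The region called in all 9 lists, chr5:107289024-107289775, spans the high-coordinate end of the gene body at chr5:107289629. No start site was matched for Tgfbr3, so this end may be its start. This region called in all 9 lists was compared by rank. It ranked at percentiles 70.6, 86.7 and 81.6 in E10.5 lists, 52.3, 67.8 and 85.4 in E11.5 lists, and 68.7, 66.7 and 27.7 in E12.5 lists. In E12.5 sample 3 it was a low peak, with a −log10 q of 2.016, and the ranks of the 3 stages overlap.

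Tgfbr3 had 4 other often called regions. Of these, 3 lay inside the body. The region chr5:107110509-107111116 was called by E10.5 samples 1 and 3, E11.5 sample 2 and E12.5 sample 1. E12.5 samples 1 and 2 and E11.5 sample 3 called chr5:107206909-107207392 and chr5:107253226-107253629, and E10.5 sample 3 called only the first of this pair. The region at chr5:107253226-107253629 reached percentile 90.0 in E12.5 sample 2. The fourth, chr5:107303593-107303944, lies 13964 bp outside the body and was called in all 3 E12.5 lists at percentiles 65.0, 70.8 and 49.7, in E10.5 sample 1 at percentile 66.4, and in no E11.5 list.

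Acvr1 encodes a type I receptor that answers mainly to BMP ligands, and it stands here beside the TGF-beta receptors. All of its 12 regions lay inside its body, with 2, 3 and 2 calls in E10.5 lists, 0, 3 and 2 in E11.5 lists, and 3, 3 and 1 in E12.5 lists. The region at its start site, chr2:58566117-58566835, was called in all 3 E10.5 lists, in E11.5 samples 2 and 3 and in E12.5 sample 3, at percentiles 39.0, 26.6 and 56.5 in E10.5 lists, 5.5 and 74.3 in E11.5 lists, and 15.6 in that E12.5 list. It also overlaps the body of the neighbouring gene Upp2, and is the 1 region of the 156 with a tie between genes. Regions past this start site that lie inside Upp2 alone count to Upp2, so the place of the 12 regions depends on the rule. Joined with regions less than 1 kb away, the start site lay in chr2:58565042-58567734. This stretch was called by 8 lists, E11.5 sample 1 among them. A cluster of 3 regions inside the body, joined at chr2:58533512-58534468, was called by 2 E10.5 and 2 E11.5 lists and by no E12.5 list.

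**Figure D3:**
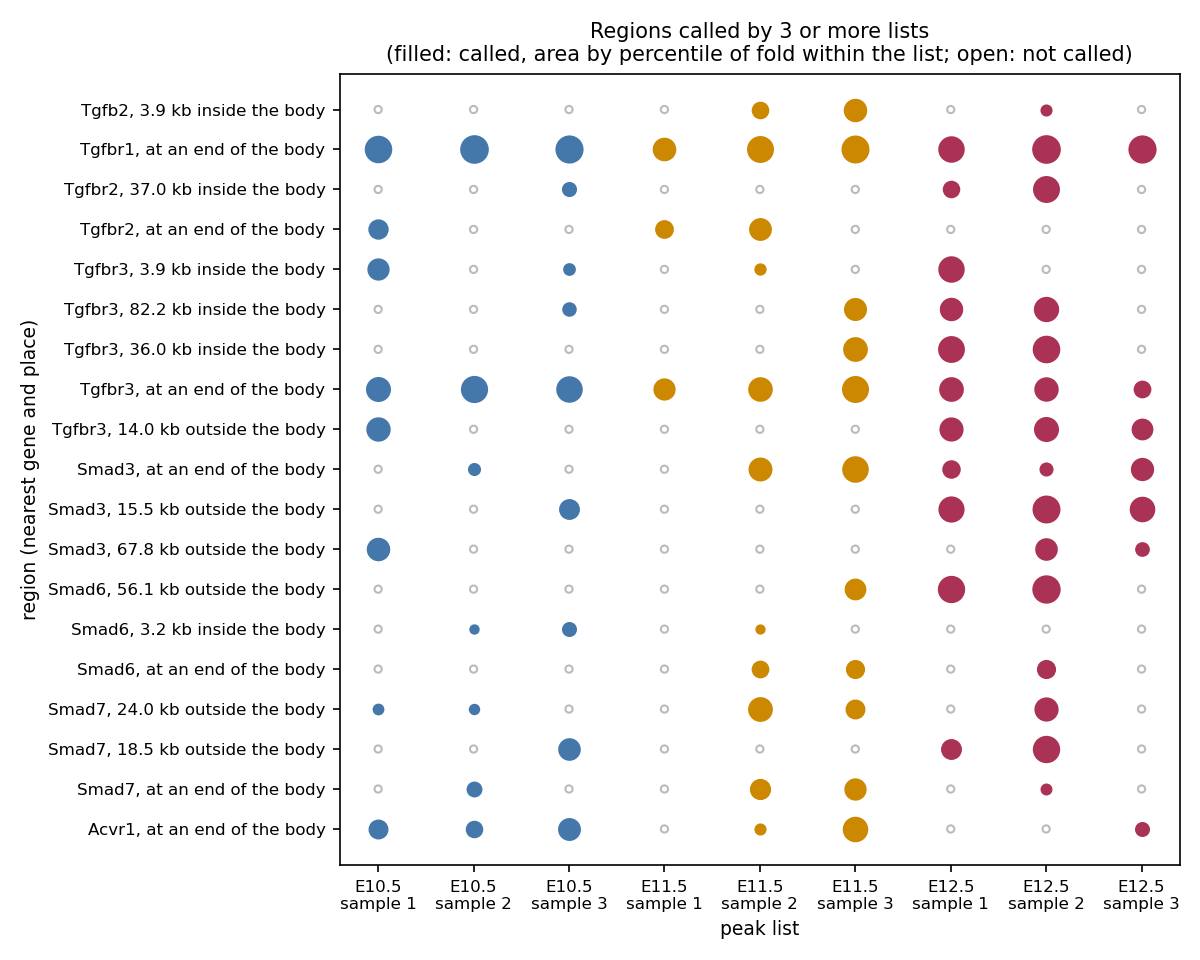
The 19 regions called by 3 or more lists (rows, in the order of the genes) in each of the 9 lists (columns, coloured by stage). A filled circle is a call, its area growing with the percentile of the peak's fold inside its list, and an open circle is no call. The rows at an end of Tgfbr1 and at an end of Tgfbr3 are filled in all 9 columns, and 16 of the 19 rows are open in E11.5 sample 1.

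Of the 19 regions called by 3 or more lists, 7 lay within 1 kb of an end of a gene body, 6 deeper inside and 6 outside. Calls at all 3 stages were found in 8 regions, or 5.13% of the 156, against 9.49% of all regions near a gene. The 3 calls of E11.5 sample 1 fell on the start-site regions of Tgfbr1 and Tgfbr2 and on the high-coordinate end of the Tgfbr3 body. That end may be the start of Tgfbr3, for which no start site was matched.

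Among the SMADs, Smad3 had the most regions of the 10 genes, and its calls were above the expected number in every E12.5 list and below it in every E11.5 list. Smad3 is the receptor-activated SMAD that binds DNA directly. It had 30 regions, with 1, 5 and 3 calls in E10.5 lists, 0, 2 and 4 in E11.5 lists, and 7, 13 and 6 in E12.5 lists. The lowest E12.5 list thus lay above the highest list of each earlier stage. The expected numbers were 2.687, 3.442 and 2.401 in E10.5 lists, 0.718, 4.765 and 7.983 in E11.5 lists, and 4.947, 10.688 and 3.369 in E12.5 lists. E11.5 sample 3, with 41457 peaks, called 4 regions, while E12.5 sample 3, with 19139 peaks, called 6.

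Few of these Smad3 regions were shared between lists. A single list called 26 of the 30, and of the 20 called at E12.5, 17 were called at no other stage and 4 by 2 or more E12.5 lists. Inside the gene body at chr9:63646766-63757994 lay 2 of the regions called at E10.5, 2 of those called at E11.5 and 14 of those called at E12.5. Outside it lay 7, 3 and 6 regions at these stages. The E12.5 calls were therefore spread over the gene body, mostly at places that differed from list to list. Smad3 regions called by a single E12.5 list and no other ranked from percentile 1.2 to 57.7 of that list. The lowest stood at percentiles 1.2, 1.9 and 2.5 in E12.5 sample 2 and 1.7, 1.5 and 2.4 in E12.5 sample 1. Such peaks lie near the bottom of their lists by fold.

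There were 3 Smad3 regions with 3 or more calls. The start-site region chr9:63757836-63758458 covered the printed promoter and was called in E10.5 sample 2, E11.5 samples 2 and 3 and all 3 E12.5 lists. Its percentiles were 8.5 in that E10.5 list, 63.4 and 82.1 in E11.5 lists, and 31.5, 12.1 and 58.7 in E12.5 lists, so its rank differed widely between lists of the same stage and between stages. The region chr9:63773460-63773877, 15466 bp upstream of the start site, was called in all 3 E12.5 lists at percentiles 79.3, 92.8 and 74.9, in E10.5 sample 3 at percentile 44.2, and in no E11.5 list. It ranked higher than the start site in each E12.5 list. The third, chr9:63825834-63826207, 67840 bp upstream, was called in E10.5 sample 1 and E12.5 samples 2 and 3.

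**Figure D4:**
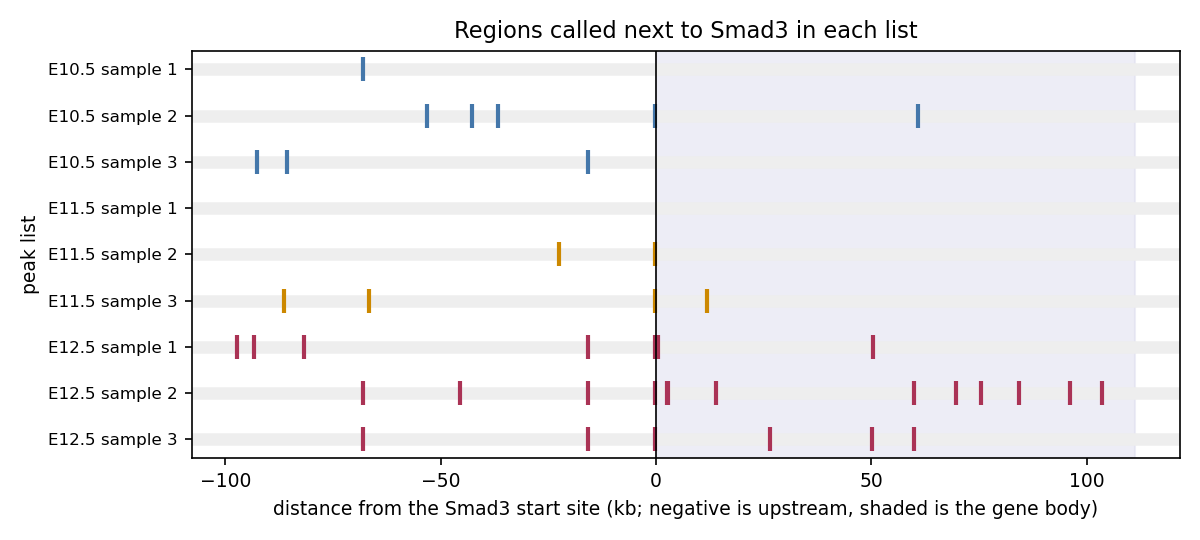
Centres of the regions next to Smad3 that each peak list (rows) called, by distance from the start site in kb. Negative distances are upstream, and the shaded band is the gene body. The 3 E12.5 rows share the marks at the start site and 15466 bp upstream, and E11.5 sample 1 has no mark.

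Smad6 and Smad7 are inhibitory SMADs, which block receptor signalling. Smad6 is the neighbour of Smad3 on chromosome 9, and no other protein-coding gene lies in the 195 kb between them. This interval held 26 regions, of which 14 were nearer to Smad3 and 12 to Smad6, and 21 were called by a single list. The nearest-gene rule divides this interval by distance alone. Lists of E10.5 called 10 of the 26 regions, lists of E11.5 called 6 and lists of E12.5 called 14.

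Smad6 had 21 regions, with 2, 2 and 2 calls in E10.5 lists, 0, 5 and 7 in E11.5 lists, and 5, 7 and 2 in E12.5 lists. Its highest-ranked region was chr9:63896734-63896970, which lies in that interval 56106 bp from the Smad6 body. It was called by E12.5 samples 1 and 2 at percentiles 87.7 and 95.8 and by E11.5 sample 3 at percentile 49.4. With its neighbours less than 1 kb away it made up chr9:63895741-63896970, which 5 lists of all 3 stages called. The promoter of Smad6 was called by E11.5 samples 2 and 3 alone, while chr9:64022672-64023323, 587 bp outside the body, was called by the same lists and by E12.5 sample 2. Between these, chr9:64022282-64022514, which shares 28 bases with the promoter window, was called by E11.5 sample 3 and E12.5 sample 2. Joined, the stretch chr9:64021941-64023323 was called by 2 E11.5 lists and 1 E12.5 list. Inside the gene, chr9:64018496-64018888 was called by E10.5 samples 2 and 3 and E11.5 sample 2, at percentile 15.6 or below.

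Smad7, the inhibitor best known as a direct target of TGF-beta signalling, had 17 regions on chromosome 18, most of them outside its short body at chr18:75367365-75395935. Its calls were 2, 4 and 1 in E10.5 lists, 0, 3 and 7 in E11.5 lists, and 4, 5 and 2 in E12.5 lists. The region called most often lay 23954 bp outside the body at chr18:75342637-75343411, with 5 calls in E10.5 samples 1 and 2, E11.5 samples 2 and 3 and E12.5 sample 2. It ranked at percentiles 4.5 and 3.3 in E10.5 lists, 69.1 and 38.8 in E11.5 lists and 65.2 in E12.5 lists. A second flanking region, chr18:75348560-75348865, was called by E10.5 sample 3 and E12.5 samples 1 and 2 and reached percentile 88.1. The region 139 bp from one end of the body, chr18:75366466-75367226, was called by E10.5 sample 2, E11.5 samples 2 and 3 and E12.5 sample 2.

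To compare stages, the calls of each gene were set against the expected calls and divided by the expected standard deviation. The resulting residuals were tested with limma across all 7487 genes that had 5 or more regions called by 1 to 8 lists, with Benjamini-Hochberg adjustment and a threshold of 0.05. Tgfb1 and Tgfb3 had too few regions, so 8 of the 10 genes were tested. The 3 comparisons share lists and are not independent.

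None of the 8 genes passed in E11.5 against E10.5, where 0.24% of all genes passed, and none had an unadjusted p under 0.05 in limma, against 748 of the 7487 genes. None passed in E12.5 against E11.5, where 3.23% of all genes passed, and 1 of the 8, Smad3, had an unadjusted p under 0.05, against 1301 of all genes. None passed in E12.5 against E10.5, where 0.0134% of all genes passed, and none had an unadjusted p under 0.05, against 657 of all genes. The median residual difference of the 8 genes was -0.38, 0.10 and -0.22 in these comparisons, and that of all genes -0.17, 0.26 and 0.04. The standard errors of 0.828 to 0.858 are larger than most differences, so these tests do not show that the stages were alike.

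The largest difference was that of Smad3 between E12.5 and E11.5. Its calls averaged 8.67 ± 3.79 in E12.5 lists, where 6.33 were expected, and 2.0 ± 2.0 in E11.5 lists, where 4.49 were expected (SD, n = 3 each). The residuals were 1.096, 0.927 and 1.652 in E12.5 lists and -0.886, -1.499 and -1.758 in E11.5 lists, so these 2 stages did not overlap. The residual difference of 2.606 (SE 0.831) had a limma p of 0.00223 and an adjusted p of 0.0584, which missed the threshold. The adjusted p ran from 0.0241 to 0.352 over 15 other settings. It passed in 2 of them, and was 0.352 without E11.5 sample 2 and 0.242 without E11.5 sample 3. At E10.5 the residuals were -1.166, 0.969 and 0.434, and neither the difference of E12.5 from E10.5 (1.146, adjusted p = 0.700) nor that of E11.5 from E10.5 (-1.46, adjusted p = 0.587) passed in limma.

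Calls next to markers of 2 other cell types, endothelium and muscle, also lay below the expected number in every E11.5 list. Apart from muscle in E12.5 sample 3, they lay above it in the E12.5 lists. Facial mesenchyme, epithelium, glia and neurons, blood and pericytes did not follow this pattern. Facial mesenchyme had 4, 30 and 47 calls in E11.5 lists (5.24, 28.64 and 46.76 expected) and 27, 53 and 24 in E12.5 lists (29.69, 60.87 and 20.49). Pericytes had 1, 7 and 9 in E11.5 lists (0.59, 4.2 and 6.8) and 4, 6 and 1 in E12.5 lists (4.36, 8.67 and 2.95). The 6 endothelial marker genes had 28, 47 and 12 regions called in the E12.5 lists, where 17.35, 37.36 and 11.66 were expected, and 0, 6 and 25 in the E11.5 lists, where 2.42, 16.69 and 28.16 were expected. At E12.5, 5 of these 6 genes had a call, all but Emcn, and at E11.5 all 6 had one. Counts without the gene that holds most regions were added after seeing the data. Erg alone held 47 of the 99 endothelial regions, with 17, 23 and 5 of the E12.5 calls, and Tek had 1 call in E12.5 lists and 1 in E11.5 lists. The other 5 endothelial genes had 11, 24 and 7 calls in E12.5 lists (9.34, 19.64 and 6.41 expected) and 0, 5 and 14 in E11.5 lists (1.42, 9.01 and 14.88 expected). The 4 muscle marker genes had 15, 21 and 4 regions called at E12.5, where 6.61, 15.22 and 4.26 were expected, and 0, 0 and 8 in E11.5 lists, where 0.78, 6.34 and 11.23 were expected. At E12.5, Myf5 had no call, and at E11.5 Myog had none. Pax7 alone held 29 of the 42 muscle regions, and without it the other 3 genes had 4, 6 and 1 calls in E12.5 lists (2.04, 4.7 and 1.32 expected) and 0, 0 and 3 in E11.5 lists (0.24, 1.96 and 3.47 expected). The part of these cell types in the Smad3 values was not tested.

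**Figure D5:**
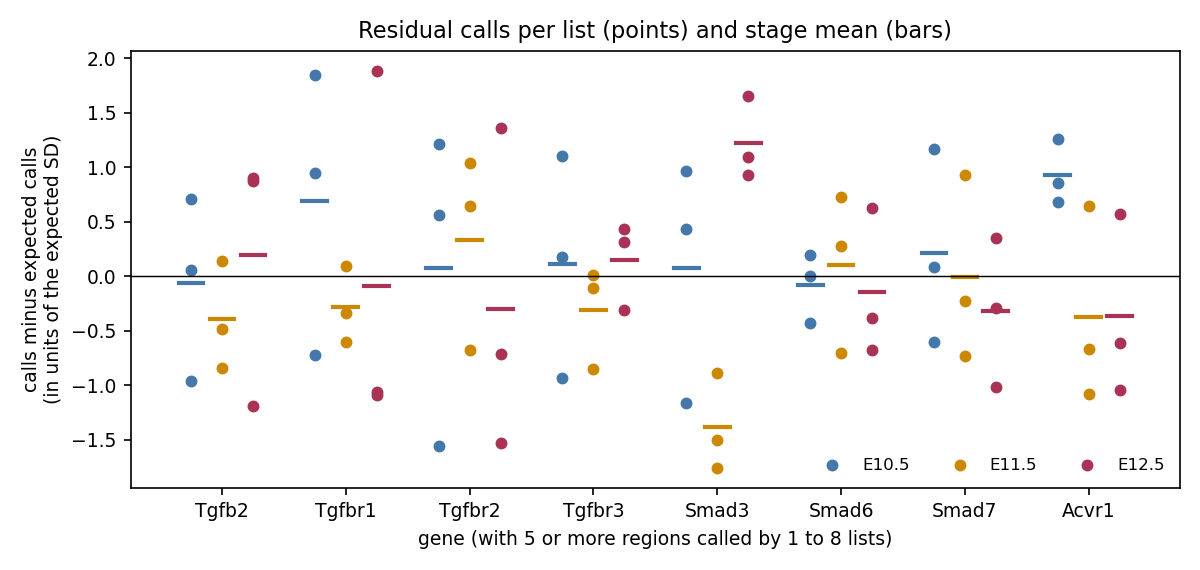
Residual calls (calls minus expected calls, in units of the expected standard deviation) for the 8 tested genes, with 1 point per list, coloured by stage, and a bar at the mean of each stage. The Smad3 points of E12.5 (0.927 to 1.652) lie above those of E11.5 (-1.758 to -0.886), and in the Acvr1 column the E10.5 points lie from 0.685 to 1.258.

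Among the other genes, Acvr1 had the widest differences. Its residuals were 0.685, 1.258 and 0.853 in E10.5 lists, -0.666, 0.641 and -1.082 in E11.5 lists, and 0.569, -1.043 and -0.611 in E12.5 lists, so every E10.5 list lay above every later list. The differences of -1.301 for E11.5 against E10.5 (adjusted p = 0.656) and -1.294 for E12.5 against E10.5 (adjusted p = 0.657, limma) did not pass. For Tgfb2, Tgfbr1, Tgfbr2, Tgfbr3, Smad6 and Smad7 the differences lay between -0.973 and 0.591 in all 3 comparisons, with limma adjusted p-values of 0.753 or more, and the lists of the stages overlapped.

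Region by region, a region was counted as gained if each of the 3 later lists called it and none of the 3 earlier ones did, and as lost in the opposite case. With 3 lists against 3, an exact test of 1 region cannot go below p = 0.1, so the counts are descriptions. Between E12.5 and E11.5, 2 of the 156 regions were gained (1.28%, against 0.575% of all regions). They were the regions 15466 bp upstream of Smad3 and 13964 bp outside Tgfbr3, and both had also been called by 1 E10.5 list. None was lost between these stages, against 1.3% of all regions. Between E11.5 and E10.5, none was gained and none lost, against 0.657% and 0.151% of all regions. Between E12.5 and E10.5, none was gained and none lost either, against 0.487% and 0.335%.

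The E11.5 counts differed without E11.5 sample 1, which called only 3 of the 156 regions. Without it, 8 regions were gained between E11.5 and E10.5 (5.13%, against 4.65% of all regions). They were next to Tgfb2 (2 regions), Smad6 (2 regions), Tgfb3, Tgfbr1, Tgfbr3 and Acvr1. Of these 8, 6 were also lost between E12.5 and E11.5 (3.85%, against 5.92% of all regions). These shares are near those of all regions. Among the 6 were the region at the high-coordinate end of Tgfb3 and the Smad6 promoter region chr9:64021941-64022147. Joined with regions less than 1 kb away, these became chr12:86075797-86079687 and chr9:64021941-64023323. Lists of E12.5 called both joined stretches, so neither stretch was lost. The 2 regions gained between E12.5 and E11.5 were gained without this list too (0.576% of all regions were).

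Other genes of the pathway were read in the same way. No gene passed the limma test in any comparison among the 9 tested genes of latent TGF-beta handling, the 6 tested activin-type receptors and ligands, the 14 tested SMADs and regulators or the 5 tested response genes. Unadjusted p-values under 0.05 in limma were found for 0, 0, 4 and 1 genes of these lists in E11.5 against E10.5, for 1, 0, 1 and 3 in E12.5 against E11.5, and for 1, 0, 1 and 0 in E12.5 against E10.5. Over the 34 tested genes of the 4 lists these were 14.7%, 14.7% and 5.88%, against 9.99%, 17.4% and 8.78% of all tested genes, so shares of this size are common over all genes. Ltbp1, which stores latent TGF-beta in the matrix, was nearest to the threshold, with 3.33 ± 3.21 calls at E12.5 and 6.0 ± 3.61 at E11.5 (SD, n = 3 each), a residual difference of -2.624 and a limma adjusted p of 0.0544.

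Some of the 390 regions next to these genes were gained or lost as defined above. Those gained made up 1.28% between E11.5 and E10.5 (0.657% of all regions), 0.513% between E12.5 and E11.5 (0.575%) and 0.256% between E12.5 and E10.5 (0.487%). Those lost made up 0.0%, 1.54% and 0.256% in the same comparisons (0.151%, 1.3% and 0.335% of all regions). The counts behind these shares are 0 to 6 regions. Between E11.5 and E10.5, 5 regions were gained, 2 next to Ltbp1 and 1 each next to Acvr2a, an activin receptor, Pmepa1, a membrane protein that restrains SMAD activation, and Ski, a SMAD corepressor. The E12.5 lists called none of the Acvr2a and Pmepa1 regions and none of the Ltbp1 region 10696 bp outside the gene, so these 3 were lost again between E12.5 and E11.5. Regions inside Acvr1c (an activin-type receptor), Itgb8 (an integrin chain that releases active TGF-beta) and Snai2 (a transcription factor of mesenchyme) were lost between E12.5 and E11.5 as well. The Itgb8 region, called in all E10.5 and E11.5 lists and no E12.5 list, was also lost between E12.5 and E10.5. A Pmepa1 region 59646 bp outside the gene was called in all 3 E12.5 lists and in no other, and a Bambi region was gained between E12.5 and E11.5 but had been called in E10.5 samples 1 and 2. Bambi is a decoy receptor without kinase activity.

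As a description of likeness, the residuals of each gene over the 9 lists were correlated with those of the other 7486 genes, for genes with 10 or more tested regions. All correlations share the same 9 lists. Those given are the highest of 7486 for each gene, a choice that favours high values, and they were not tested. The genes most like Smad3 were Dcdc2c (r = 0.964), Pla2g5 (0.961) and Tbc1d14 (0.959). Most like Tgfb2 were Ccdc114 (0.942), Ltbp2 (0.938) and Egr3 (0.913), and most like Smad6 were Rbpms (0.956), Hmga2 (0.946) and Hfm1 (0.909). Most like Smad7 were Dkk3 (0.958), Cage1 (0.945) and Niban1 (0.93), and most like Acvr1 were Eml6 (0.917), Runx2 (0.903) and Abcd3 (0.893). Most like Tgfbr2 were Arhgap12 (0.897), Cog5 (0.875) and Ank (0.871), and most like Tgfbr3 were Abhd17c (0.904), Pdpr (0.885) and Taf5l (0.885).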

How the data were processed

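ATAC-seq libraries from 23 runs belong to 9 biological samples, 3 per stage, and repeat runs of a sample share 1 deposited peak list. MACS2, deepTools 3.3.1, Bowtie2 and the mm10 build are named in the submitters' processing notes. The sources used here do not give their order and settings, any shift for the transposase offset or any pooling of runs. Per the labels, calling used paired-end mode and blacklist filtering. Each deposited list gives a peak's position, a fold (ratio over background) and a −log10 q-value of the authors' caller, used only within a list. Without read counts, depth and counting error are unknown. Precision comes from the spread between the 3 lists of each stage, mostly as pooled over all tested genes and not from 1 gene alone.

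Peaks on the 19 autosomes and chromosome X were merged and assigned to the nearest of 21631 protein-coding RefSeq genes (GRCm38.p6), and 1 peak on chromosome Y was left out. The gene table gives no strand or exons, so exons and introns were not separated, and start sites came from RefSeq promoters. Expected calls came from a logit model with additive terms for each list and each region, conditional on the number of lists calling a region. Residuals were tested in R 4.3.3 by limma 3.58.1, which fitted the 3 stages jointly, and most of the variance weight came from all genes (98.2 prior degrees of freedom). The model and test were run on calls simulated from this same model, with each region drawn independently. Such a run cannot show how the test behaves where the lists depart from the model. A promoter window counted as called where a list's own peak overlapped it by 1 bp.

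The genes, lists and tests were chosen with earlier results of these data known. The rule named the 10 genes, other pathway genes past the test or with a gained or lost region, and the regions called by all 9 lists, gained or lost, or called most often per gene. Other regions given by position, those called by 3 or more lists included, were chosen after their values were seen, as was Ltbp1 as the pathway gene nearest to the threshold. Alternatives covered the peak threshold, the peak width, list length, the assignment distance, the region and gene minimums, the calling model, each list left out and the replicate block. Tables and figures were made with pandas 2.3.3, NumPy 2.4.6, Matplotlib 3.10.9 and SciPy 1.17.1 under Python 3.11.15.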

Additional observations from a re-analysis of the deposited data

How the results depend on the processing

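The count of the 8 tested genes past the limma test stayed at 0 in E11.5 against E10.5 and in E12.5 against E10.5 under every alternative that could test any of them. In E12.5 against E11.5 it became 1, Smad3, with peaks cut to 100 bp either side of the summit (adjusted p = 0.0394) and with genes within 20 kb (adjusted p = 0.0241). Only 25 of the regions held a peak with a −log10 q of at least 5 and only 17 remained in equal-length lists, where no gene could be tested. Regions called by 2 to 8 lists left 3 testable genes, Smad3 not among them. The number gained between E12.5 and E11.5 was then 0 at that −log10 q and 1 (next to Smad3) in equal-length lists, and the number lost was 1 (next to Tgfbr3) at that −log10 q.

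Leaving out each list in turn gave 0 to 8 regions gained and 0 to 1 lost between E11.5 and E10.5, 2 to 5 gained and 0 to 6 lost between E12.5 and E11.5, and 0 to 3 gained and 0 to 2 lost between E12.5 and E10.5. The 8 and the 6 came without E11.5 sample 1. Between E12.5 and E11.5, 4 regions were gained without E12.5 sample 1, 3 of them next to Smad3, and 5 without E12.5 sample 3, and 1 next to Tgfbr2 was lost without E11.5 sample 3. Between E12.5 and E10.5, 3 were gained without E12.5 sample 3, 1 was gained without each E10.5 list or E12.5 sample 1, 2 were lost without E10.5 sample 1 and 1 without E12.5 sample 3. Between E11.5 and E10.5, 1 next to Tgfbr1 was lost without E10.5 sample 1. A call by all lists of a stage is easier to meet with 2 lists than with 3.

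Residuals of same-numbered lists of different stages had correlations of -0.099 to 0.016, and those of differently numbered lists -0.127 to 0.13. No pairing by number was seen in this measure. It cannot show whether same-numbered samples share a litter or a batch. With a replicate block, 0 of the 8 genes passed in each comparison, and Smad3 in E12.5 against E11.5 kept its difference of 2.606 (adjusted p = 0.0602). Joining regions less than 1 kb apart, an alternative chosen after seeing the data, gave 121 regions, of which 61.2% were called once (56.4% of all joined regions), and a Smad3 difference of 2.482 (adjusted p = 0.0675). Over single genes, 316 alternative values kept their sign and call, 42 that did not pass changed sign, and 2 passed the threshold. The counts over all genes in E12.5 against E11.5 were 83 with more calls and 159 with fewer, and ran from 5 to 111 and from 23 to 168 with a list left out, lowest without E11.5 sample 2. With a calling model by distance to gene ends they were 32 and 172, and without the regions called once 47 and 60. In E11.5 against E10.5, 0 to 55 genes had more calls with a list left out, against 16, and in E12.5 against E10.5, 0 to 8, against 1.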
